A study of Bos taurus with 5 samples.

Results

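The levels of 9 interferon-induced antiviral genes were examined by RNA sequencing in 5 cattle libraries (Bos taurus). The genes were IFI6, IFI27, MX1, MX2, ISG15, USP18, IFIT1, IFIT3 and IFITM3. They were taken by gene name from a table of 27607 genes, where IFITM3 names 2 entries, so the 9 names gave 10 entries. The libraries carry the labels brain, skin, lung, heart and limb, with 1 library for each label and no other treatment or genotype given. The labels used here give no breed, age or number of cells or animals behind a library, and their protocols describe lysis and pre-amplification on a C1-HT microfluidic chip. The genes were chosen from these same values with the brain and limb labels in view, so the values below are a description of 5 libraries, with no error and no test. Fewer cells of a type and less RNA per cell cannot be told apart in such data.

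Interferons are secreted by cells that sense viral nucleic acid. They bind receptors on the same and on neighbouring cells, where the kinases JAK1 and TYK2 relay the signal to a complex with STAT2 and IRF9, which switches on a set of antiviral genes. Among these, MX1 and MX2 are dynamin-like GTPases that trap viral components, IFIT1 and IFIT3 bind foreign RNA or its complexes, and IFITM3 blocks viral fusion in endosomes. ISG15 is a ubiquitin-like protein that is attached to other proteins, USP18 removes it and also dampens receptor signalling, and IFI6 and IFI27 are small related membrane proteins.

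The libraries were compared by their values in FPKM (sequenced fragments scaled to the length of the transcript and to the total of the library). Genes above 0 numbered 5109 in the skin-labelled, 5319 in the limb-labelled, 5991 in the lung-labelled, 6599 in the brain-labelled and 6634 in the heart-labelled library. By short lists of defining markers, the labels were mostly not borne out. In the brain-labelled library, 0 of 7 brain markers (SNAP25, SYT1 and GFAP among them) were above 0. In the limb-labelled one, 2 of 7 limb markers were above 0. Of these 2, ACTA1 stood at 37.6 FPKM there and at most 1.57 FPKM elsewhere. The other, PRRX1, stood at 22.8 FPKM there but at 282 FPKM under the skin label. Of the skin, lung and heart markers, 1 of 5, 0 of 6 and 1 of 6 were above 0 in the library with that label. The heart marker, ACTC1, stood at 5.21 FPKM under the heart label but at 231 FPKM under the limb label. Of 7 fibroblast markers, 5 were above 0 in every library, summing to 1108 to 3278 FPKM, and DCN and LUM were listed at 0. VIM alone, at 1011 to 2251 FPKM, made up most of each sum. COL1A1, COL1A2, COL3A1 and FN1 stood at 6.0 to 523 FPKM. All 15 markers of blood and immune cells, including PTPRC, CD14 and CD68, were listed at 0 in all 5 libraries. The labels are therefore used below as names of libraries only.

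Of the 10 entries, 8 were above 0 in at least 1 library, and MX2 and IFIT3 were listed at 0 in all 5. The brain-labelled library had 8 entries above 0, the heart- and limb-labelled libraries 7 each, the lung-labelled 6 and the skin-labelled 5. IFI6, USP18, MX1 and both IFITM3 entries, 5 in all, were above 0 in all 5 libraries. Of all genes averaging 10 FPKM or more, 49.7% were above 0 in all 5. Together the 10 entries made up 1.55% of the summed FPKM in the limb-labelled and 1.32% in the brain-labelled library, against 0.93% in the lung-, 0.686% in the heart- and 0.305% in the skin-labelled one.

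**Figure D1:**
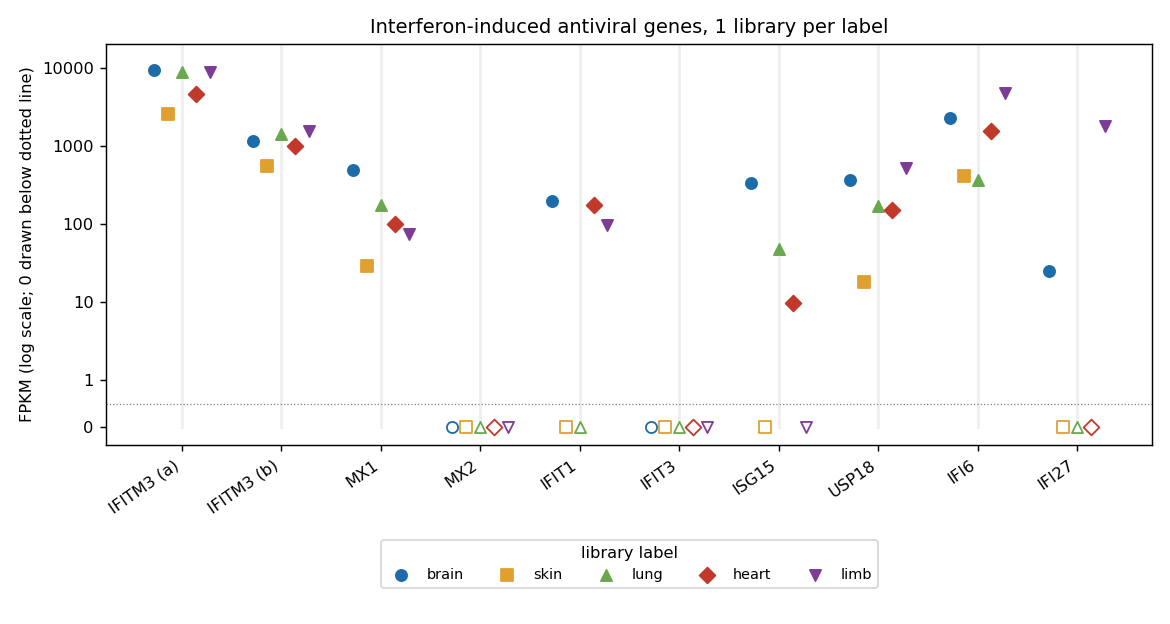
Level of each of the 10 entries in FPKM on a log axis, 1 point per library, with open symbols below the dotted line for a value of 0; IFITM3 (a) is ENSBTAG00000019015 and IFITM3 (b) is ENSBTAG00000052306. The brain or the limb symbol is the highest for all 8 entries above 0, while MX2 and IFIT3 are at 0 throughout.

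Which of the genes the brain- and limb-labelled libraries share was asked first. A gene was called high in both when the lower of the 2 values was at least 10 FPKM and, after adding 1, no less than 4 times the largest value under the skin, lung and heart labels. By this rule 1 of the 10 entries, IFI27, was high in both, beside 2.69% of the 2935 genes at 10 FPKM or more in both libraries. USP18 came next, with a ratio of 2.11, then IFI6 with 1.49. MX2 and IFIT3, listed at 0 throughout, and ISG15, listed at 0 under the limb label, could not pass the minimum. The highest value of each of the 8 entries above 0 was in one of these libraries, 4 in the brain-labelled and 4 in the limb-labelled. Some margins were small: IFIT1 was 1.12 times its value under the heart label. The IFITM3 entries were 1.065 and 1.08 times their values under the lung label. Over the 5010 genes averaging 10 FPKM or more, the brain-labelled library was the highest for 17.7% and the limb-labelled for 18.9%. The entries were chosen with these labels in view, so their counts carry no independent weight beside these shares. For the other 5 of the 8, namely IFIT1, ISG15, MX1 and both IFITM3 entries, the lower of the brain and limb values was below the highest of the other 3 libraries.

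USP18 (ENSBTAG00000016661) stood at 365 FPKM under the brain label and 519 FPKM under the limb label. In the other libraries it stood at 172 FPKM (lung label), 149 FPKM (heart label) and 18.15 FPKM (skin label). The limb and brain values lay 1.42 times apart on the FPKM scale, and the lowest of the 5, under the skin label, was 28.6 times below the limb value. USP18 was the gene for which both libraries were above all 3 others by the widest margin, apart from IFI27.

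IFI6 (ENSBTAG00000007554) encodes a small membrane protein induced by type I interferon, and it was abundant in all 5 libraries. Its level was 4758 FPKM under the limb label, 2296 FPKM under the brain label and 1538 FPKM under the heart label. The skin and lung labels had 411 and 362 FPKM. The brain value was 1.49 times the heart value but 5.58 times the skin value and 6.35 times the lung value. IFI6 ranked 30th among the genes above 0 in the limb-labelled library and 73rd in the brain-labelled one, against 512th in the skin-labelled one.

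IFIT1 (ENSBTAG00000007881), which binds RNA lacking the host's cap methylation, was also lowest under the skin and lung labels. Unlike for IFI6, its limb value was below its heart value. It stood at 194 FPKM under the brain label, 173 FPKM under the heart label and 97.9 FPKM under the limb label, and was listed at 0 under the skin and lung labels. Being listed at 0 was uncommon at this level: of the 1401 genes at 100 FPKM or more in the brain-labelled library, 7.28% were at 0 under the skin label and 5% under the lung label. IFI6 and IFIT1 were the 2 entries for which the brain-, heart- and limb-labelled libraries were all above both the skin- and the lung-labelled one, a pattern picked out after the values were seen and held by 12.2% of genes averaging 10 FPKM or more. The single gene UBE2C, a ubiquitin-conjugating enzyme of mitosis that was also picked out after its values were seen, split the libraries the opposite way, at 372 and 290.2 FPKM under the skin and lung labels and no more than 1.13 FPKM under the others. CCNB1, also a gene of mitosis, was likewise listed at 0 under the brain, heart and limb labels. Other genes of mitosis did not all follow UBE2C. AURKB stood at 39.1 FPKM under the brain label and 0 under the limb label, and KIF20B at 0 and 46.1 FPKM. The part of cell division in the IFI6 and IFIT1 values was not tested.

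IFITM3 was by far the most abundant of the genes, and it did not set the brain- and limb-labelled libraries apart from the lung-labelled one. The first entry (ENSBTAG00000019015) stood at 9293 FPKM under the brain label, 8726 FPKM under the lung label and 8681 FPKM under the limb label. It stood at 4599.5 FPKM under the heart label and 2551 FPKM under the skin label. It ranked 11th, 12th and 14th among the genes of the brain-, lung- and limb-labelled libraries. The second entry (ENSBTAG00000052306) stood at 1544 FPKM under the limb label, 1426 FPKM under the lung label and 1136 FPKM under the brain label, with 1002 FPKM under the heart and 544 FPKM under the skin label. Both entries were lowest in the skin-labelled library, and their highest values were 3.64 and 2.84 times their lowest. The first was 4.59 to 8.18 times the second within a library, and since near-identical copies can share reads, this split is uncertain. The entries together made up 58.6% of the summed FPKM of the 10 entries under the limb label and 93.1% under the lung label.

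Which genes differ between the brain and limb labels was asked next. A gene was called higher in one library when its value there was at least 10 FPKM and at least 4 times the other after adding 1. IFI27 was the 1 entry called higher under the limb label, where 17.1% of the 5584 genes at 10 FPKM or more in either library were called. ISG15 and MX1, 2 of the 10 entries, were called higher under the brain label, beside 28.7% of the same genes. Of the 10 entries, 8 reached 10 FPKM in either library, and both counts, 1 and 2, were below these shares. The called entry nearest the threshold of 4 was MX1, with a ratio of 6.45 after adding 1. The nearest not called were IFI6, 2.07 times higher under the limb label, and IFIT1, 1.97 times higher under the brain label. Over the 8 entries above 0, the median of the limb minus brain difference in log2(FPKM + 1) was 0.17, with 4 entries higher and 4 lower, and over the 8694 genes averaging 1 FPKM or more it was 0.00.

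**Figure D2:**
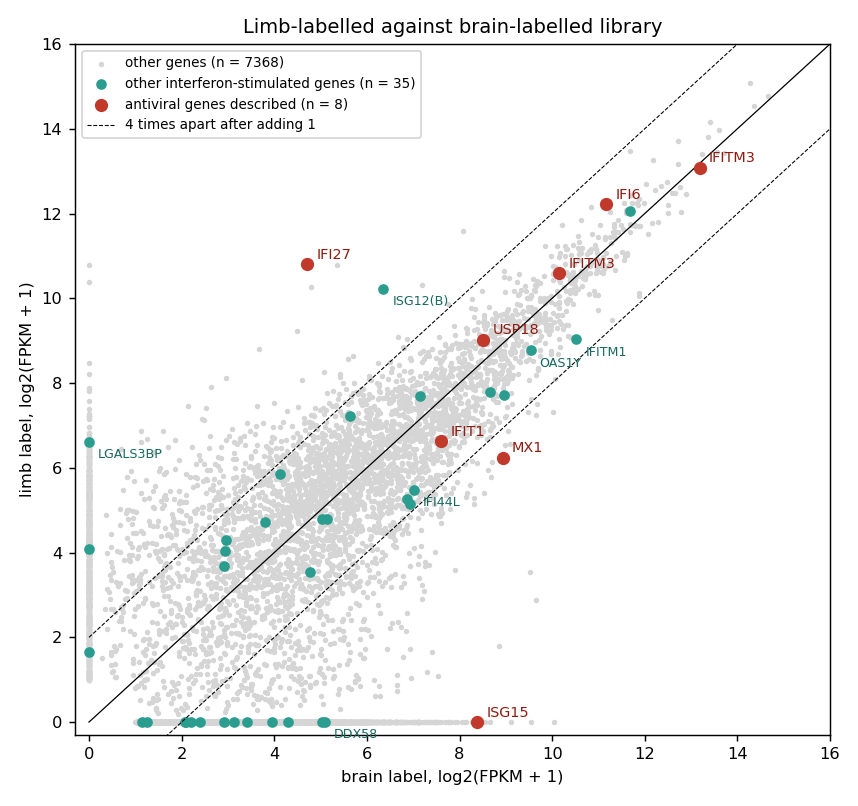
Level in the limb-labelled library (y axis) against the brain-labelled library (x axis), both as log2(FPKM + 1), for genes at 1 FPKM or more in either, with the dashed lines 4 times apart. IFI27 lies above the upper line, ISG15 and MX1 lie below the lower one, and the other 5 entries lie between them.

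IFI27 (ENSBTAG00000003152), also known as ISG12, is a small membrane protein linked to mitochondria and apoptosis. It stood at 1784 FPKM under the limb label and 25.3 FPKM under the brain label, and was listed at 0 under the skin, lung and heart labels. It is therefore both the 1 entry high in both libraries and the 1 entry called higher under the limb label. The brain value ranked 3230th among the 6599 genes above 0 there, near their median of 24.1 FPKM, whereas the limb value ranked 114th of 5319. Of the 400 genes at 500 FPKM or more in the limb-labelled library, 1.5% were listed at 0 under the skin label, 1.25% under the lung label and 1.25% under the heart label. At the lower level of the brain value such zeros were common. Of the 4590 genes at 10 FPKM or more in the brain-labelled library, 29.3% were at 0 under the skin label, 22.9% under the lung label and 16% under the heart label.

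ISG15 (ENSBTAG00000014707) ran the other way. It stood at 333 FPKM under the brain label, 47.3 FPKM under the lung label and 9.77 FPKM under the heart label, and was listed at 0 under the skin and limb labels. The brain value was 7.03 times the lung value and 34.0 times the heart value. Of the 1401 genes at 100 FPKM or more in the brain-labelled library, 67 (4.78%) were listed at 0 in the limb-labelled one. ISG15 and its protease USP18 were thus both above 0 under the brain, lung and heart labels, while the limb-labelled library had the highest USP18 and no listed ISG15.

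MX1 (ENSBTAG00000030913) stood at 487 FPKM under the brain label and 175 FPKM under the lung label. It stood at 101 FPKM under the heart label, 74.65 FPKM under the limb label and 29.1 FPKM under the skin label. The brain value was 6.52 times the limb value and 16.7 times the skin value on the FPKM scale. The limb-labelled library was thus the second lowest for MX1 but the highest for IFI6, IFI27 and USP18. MX2, the gene next to MX1 and closely related to it, was listed at 0 throughout, as was IFIT3, a partner of IFIT1.

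The skin-labelled library was the low end, alone or tied at 0, for most entries. It was the lowest or tied for the lowest for 7 of the 8 entries above 0. Of genes averaging 10 FPKM or more, it was so for 34.4%. The exception was IFI6, where the lung-labelled library was lower. IFI27 was tied at 0 with the lung and heart labels, IFIT1 with the lung label and ISG15 with the limb label. In the comparison of the brain with the skin label, 6 of the 10 entries were called higher under the brain label (31.2% of genes). In that of the limb with the skin label, 4 were called higher under the limb label (27.4%). The shares of genes called, here and against the lung and heart labels, are over genes at 10 FPKM or more in either library compared. The 6 were IFI27, IFI6, IFIT1, ISG15, MX1 and USP18, and the 4 were IFI27, IFI6, IFIT1 and USP18. MX2 and IFIT3, listed at 0 throughout, are among the 10 but not among such genes, and could not be called. ISG15, at 0 under the limb label, could not be called higher there. Against the lung label, 4 entries were called higher under the brain label (25.3% of genes) and 3 under the limb label (22.9%). Against the heart label, 3 were called higher under the brain label (19.3%) and 1 under the limb label (17.7%), the fewest among the 3 libraries. These comparisons share the brain- and limb-labelled libraries and are not independent. The skin-labelled library also had the fewest genes above 0, and the part of this in its low values was not tested.

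As a group, the 8 entries above 0 had a median brain value 2.39 above the mean of the skin, lung and heart labels on the log2(FPKM + 1) scale, with all 8 higher. The median over 8694 genes was 0.07. For the limb label the median was 1.80, with 6 higher and 2 lower (ISG15 and MX1), against -0.37 over all genes. With MX2 and IFIT3 included at 0, the medians over the 10 entries were 2.06 and 0.82. The entries were chosen for such values, so the medians carry no independent weight. Without the skin label in the reference the medians over the 8 were 1.74 for the brain and 1.07 for the limb label.

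The entries were also compared with each other over the 5 libraries. ISG15 and MX1 had a Pearson correlation of 0.94 on the log2(FPKM + 1) scale, both highest under the brain label with the lung label second. IFI6 and IFI27 had one of 0.845, both highest under the limb label. IFI6 with IFIT1, which was highest under the brain label, gave a higher value of 0.897, so the entries do not fall into groups by their highest library, while ISG15 with IFI27 gave -0.21 and ISG15 with IFI6 gave -0.03. USP18 followed the first IFITM3 entry at 0.92. Each rests on 5 libraries, so these values are a description only. Among 3248 named genes averaging 10 FPKM or more and an SD of at least 1 on the log2 scale, those most like the mean of the entries were PPP1R12A (0.990), C6H4orf48 (0.983) and MTCH2 (0.981), all highest under the brain label and lowest under the skin label. Also among the 10 most alike were PUDP, SRP54, ARPC5L, HTRA1, ODR4 and SLC1A5, at 0.978 to 0.968. The 5 most like IFI27 were ANKRD2 (0.997), PHYKPL (0.992), CA3 (0.989), WDSUB1 (0.988) and NCR3 (0.986), at 50.1 to 176 FPKM under the limb label, no more than 11.2 FPKM under the brain label and 0 elsewhere.

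Related genes next to the members gave a further view. In the RefSeq annotation of a later assembly (ARS-UCD2.0), IFI27 lies between ISG12(B) and IFI27L2, both of the same family. ISG12(B) stood at 1199 FPKM under the limb label, 535 FPKM under the heart label, 208 FPKM under the lung label, 81.0 FPKM under the brain label and 30.3 FPKM under the skin label. IFI27L2 stood at 149 FPKM under the limb label, 51.9 FPKM under the heart label, 48.4 FPKM under the brain label, 12.1 FPKM under the skin label and 10.8 FPKM under the lung label. All 3 neighbours were thus highest under the limb label, but unlike IFI27 the other 2 were above 0 in all 5 libraries and above the brain value under the heart label. The limb value of ISG12(B) was 14.6 times the brain value after adding 1, that of IFI27L2 3.04 times. Reads that match more than one of these related genes can be divided among them in the authors' counting, so the values of single genes of the family are uncertain.

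**Figure D3:**
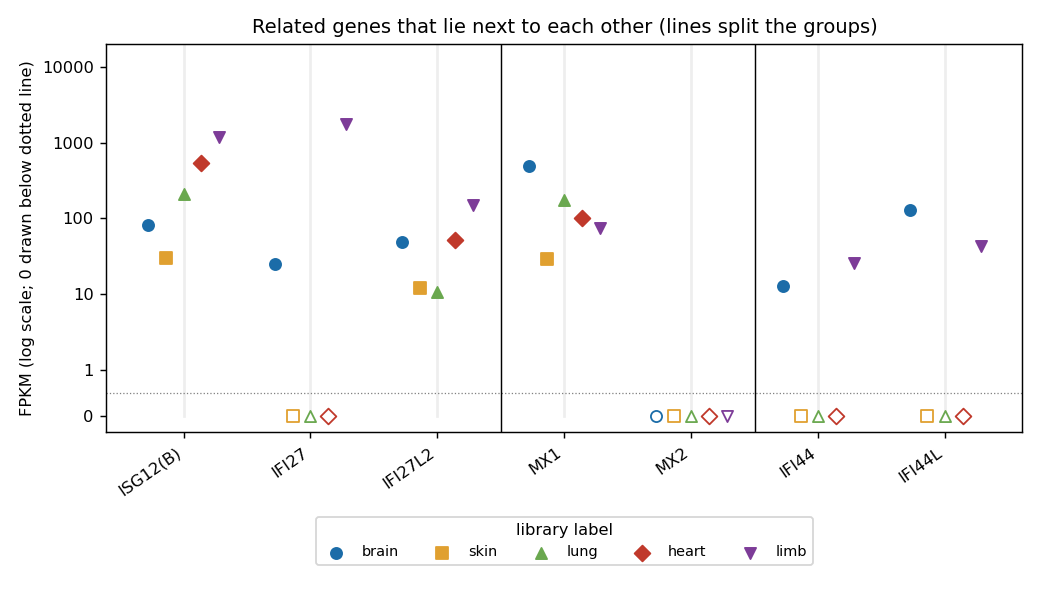
Level in FPKM on a log axis, 1 point per library, for the IFI27 family neighbours, for MX1 with MX2 and for IFI44 with IFI44L, with open symbols for a value of 0. The limb symbol is the highest for ISG12(B), IFI27 and IFI27L2, and IFI44 and IFI44L are above 0 only under the brain and limb labels.

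IFITM1, which lies next to a locus that carries the name IFITM3 as a synonym, did not follow the IFITM3 entries. It stood at 3682 FPKM under the heart label, 1473 FPKM under the brain label, 521 FPKM under the limb label, 349 FPKM under the skin label and 166 FPKM under the lung label. The lung-labelled library, among the highest for IFITM3, was thus the lowest for IFITM1.

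A wider list of other interferon-stimulated genes had 59 entries, of which 43 were above 0 in at least 1 library and 16 in none. Of these, 2 (IFI44L and IFI44) were high in both the brain- and limb-labelled libraries by the rule used above, which 2.69% of the genes at 10 FPKM or more in both passed. IFI44L stood at 128 FPKM under the brain and 43.8 FPKM under the limb label, and IFI44, which lies next to it, at 12.9 and 25.5 FPKM. Both were listed at 0 in the other 3 libraries, like IFI27. Such zeros were common at the brain level of IFI44. Of the genes at 10 FPKM or more under the brain label, 29.3% were at 0 under the skin label, 22.9% under the lung label and 16% under the heart label. Entries of the list below 10 FPKM under either the brain or the limb label could not pass this rule. The 2 as a part of the 43 or 59 are therefore not comparable with the 2.69%. Of the 59 entries, 25 reached 10 FPKM under the brain or limb label, and 3 of these were called higher under the limb label (17.1% of all genes at that level) and 4 under the brain label (28.7%). Those called under the limb label were ISG12(B), LGALS3BP (a secreted glycoprotein) at 96.25 FPKM and TAP1 (the peptide transporter of antigen presentation) at 16.1 FPKM, the last 2 listed at 0 under the brain label. Those called under the brain label, all listed at 0 under the limb label, were the RNA sensor gene DDX58 at 33.2 FPKM, TRIM5, which restricts retroviral capsids, at 31.7 FPKM, SAMHD1, which depletes nucleotides, at 18.7 FPKM and PARP14 at 14.5 FPKM. Of the 4590 genes at 10 FPKM or more under the brain label, 27.1% were listed at 0 under the limb label.

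Other genes of the list were above 0 in both libraries and in others. B2M, the light chain of the class I antigen-presenting molecules, stood highest, at 4262 FPKM under the limb label, 3299 FPKM under the brain label and 1955 to 2502 FPKM under the rest. OAS1Y, a sensor of double-stranded RNA, stood at 742 FPKM under the brain label, 506 FPKM under the lung label, 436 FPKM under the limb label, 229 FPKM under the heart label and 75.9 FPKM under the skin label. The order of the libraries was that of the first IFITM3 entry, with the skin label lowest. XAF1, a promoter of apoptosis, stood at 206 FPKM under the limb label, 141 FPKM under the brain label, 109 FPKM under the heart label and 35.1 FPKM under the lung label, and was listed at 0 under the skin label. IFIT5 stood at 120.5 FPKM under the brain label, 48.8 FPKM under the heart label and 34.35 FPKM under the limb label, above 15.8 and 12.8 FPKM under the skin and lung labels, as its relative IFIT1 was. UBE2L6, the enzyme that carries ISG15 to its targets, stood at 31.6, 29.1 and 26.6 FPKM under the brain, heart and limb labels and at 0.70 and 0 FPKM under the skin and lung labels. Over the 38 entries of the list averaging 1 FPKM or more, the median log2 difference from the other 3 libraries was 1.30 for the brain label and -0.01 for the limb label. Over all 8694 genes averaging 1 FPKM or more, these medians were 0.07 and -0.37.

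**Figure D4:**
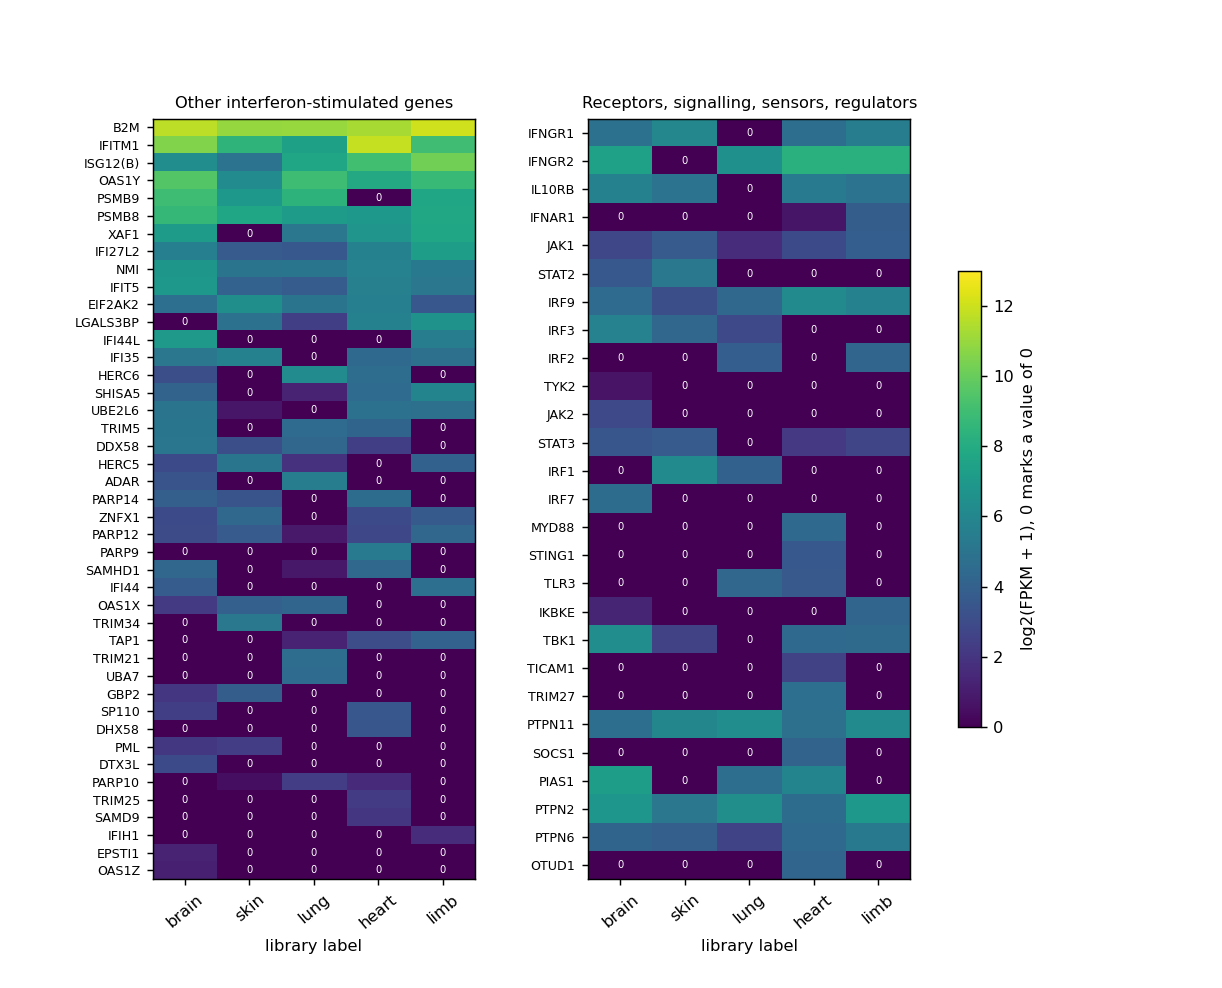
Level as log2(FPKM + 1) in each library (columns) for listed genes above 0 in at least 1 library (1 not shown), with the other interferon-stimulated genes on the left, ordered by mean, and the receptors, signalling genes, sensors and regulators on the right; a printed 0 marks a value of 0. IFI44 and IFI44L are above 0 only in the brain and limb columns, and PSMB9 is at 0 only in the heart column.

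The upstream parts of the pathway were sparse. All 14 interferon entries (IFNB, alpha, omega, tau, gamma and lambda types among them) were listed at 0 in all 5 libraries. Of 6 receptor entries 4 were above 0. IFNGR2, a chain of the interferon gamma receptor, stood at 302.6 and 302.1 FPKM under the heart and limb labels, 172 FPKM under the brain label and 90.1 FPKM under the lung label, and was listed at 0 under the skin label. IFNAR1, of the type I receptor, was listed at 13.3 FPKM under the limb label and 0.67 FPKM under the heart label only. It was the 1 receptor entry called higher under the limb than the brain label. In all, 4 receptor entries reached 10 FPKM under either label, and 17.1% of all genes at that level were called so. The count is too small to set the receptors apart from that share. IRF9 stood at 70.4 FPKM under the heart label, 52.1 FPKM under the limb label, 22.6 FPKM under the brain label, 20.3 FPKM under the lung label and 7.76 FPKM under the skin label. IRF9 was thus lowest under the skin label, as most of the antiviral genes were, alone or tied at 0.

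Of the 13 signalling and transcription entries, 8 reached 10 FPKM under the brain or limb label, and of these 3 were called higher under the brain label and 1, IRF2, under the limb label. The shares over all genes at that level, 28.7% and 17.1%, apply to these and to the lists below, and the counts are too small to set the lists apart from them. The 3 were IRF3 at 53.3 FPKM, IRF7 at 23.5 FPKM and STAT2 at 11.1 FPKM, each listed at 0 under the limb label. IRF7, which is itself induced by interferon, was listed at 0 in the other 4 libraries. Of the 13 entries for nucleic acid sensing, which share DDX58, IFIH1 and DHX58 with the list above, the kinase IKBKE was called higher under the limb label, at 17.6 against 1.58 FPKM, and DDX58 under the brain label. Of 8 other negative regulators, 1 was called, PIAS1, an inhibitor of cytokine signalling, at 156 FPKM under the brain label and 0 under the limb label. In each of these lists most values were under 100 FPKM, where single genes are often listed at 0 in one library and not in another.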

How the data were processed

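Per the submitters' processing notes, bcl2fastq, STAR and RSEM were used with the ARS-UCD1.2 build, and neither versions, annotation release nor filters are stated in the material used here. The deposited file from the authors lists 27607 genes in 5 libraries. Neither table nor labels name the unit, and the deposited values were taken as FPKM, since 98.7% to 99.1% of those above 0 were not whole and the libraries summed to 1072430 to 1172798, above the fixed total of TPM. Between 2 and 200 FPKM, 133 of 2801 brain to limb ratios lay within 0.3% of ratios of small whole numbers at the best offset in depth, against 121 at the next best and a median of 47 over offsets. The relative depth was therefore not settled and no counts were recovered.

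Values were used as deposited, in Python 3.11.15 with pandas 2.3.3. With 1 library per label there was no test. Calls used a minimum of 10 FPKM and a ratio of 4 after adding 1, which understates low genes. No ratio is given against 0 without adding 1. The call rule was tested on simulated data. The genes named are the members, listed genes above 0 and, by correlation, the genes most like the members, with some tissue and immune markers at 0. UBE2C, CCNB1, AURKB and KIF20B were chosen after their values were seen. The members and lists were chosen with earlier results of these data known. None of the gene identifiers matched the RefSeq table (ARS-UCD2.0), so names were matched: 7 of the 9 by symbol, IFITM3 as a synonym at more than one locus, IFIT1 not at all. No coordinates or sequences are given. A few results for single genes are not reported here.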

Additional observations from a re-analysis of the deposited data

How the results depend on the processing

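Over 9 results and 85 alternatives, 67 values stayed close to the reported one (counts within 1.5 times, medians within 1.5 times on the linear scale), 18 moved and 0 reversed. The 1 entry high in both libraries (IFI27) became 0 with a minimum of 50 FPKM or with 10 added, 2 with a ratio of 2, and 3 without the heart label in the reference (IFI27, IFI6 and IFIT1). The 1 entry higher under the limb label became 2 with a ratio of 2, and the 2 higher under the brain label became 1 with a ratio of 8. Of the other interferon-stimulated genes, the 2 high in both became 0 with a minimum of 50, 1 with 10 added and 4 without the heart label. The 3 higher under the limb label became 7 with a ratio of 2. The 4 higher under the brain label became 11 with a minimum of 1, 0 with a minimum of 50, 10 with a ratio of 2 and 2 with 10 added. The median for the brain label, 2.39, was 1.71 against the mean FPKM of the other 3 and 1.74 without the skin label, and that for the limb label, 1.80, was 0.73 and 1.07. The moves came with changes of reference, which change the values compared, or with changes of the minimum, ratio or added value, which change the call rule. For one, the brain value of IFI27, 25.3 FPKM, lies below the minimum of 50. Rescaling by the median ratio or to a total without mitochondrial genes moved none of the 9 results past these limits. No paired analysis was possible because each label had 1 library. With no counts recovered, the reads behind a value, and so its precision, are unknown.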
